A study of Mus musculus with 7 samples.

Results

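The genes described here build fatty acids from acetyl-CoA and then lengthen and desaturate them, together with Srebf1, the gene of the transcription factor SREBP1 that drives them. They are Srebf1, Acly, Acaca, Acss2, Fasn, Scd1, Scd2, Elovl6, Elovl5 and Me1. The members are all probes whose platform gene symbol is 1 of these names, which gave 13 probes of 10 genes among 45128 probes on the array. The arrays measured RNA of prostate tumours of the NPK mouse model, carried as allografts in athymic nude hosts of the NU/J strain. NPK is a genetically engineered model whose alleles are carried by the tumours of both groups. Athymic hosts lack T cells but keep neutrophils and macrophages. Both groups carried NPK tumours and differed in what the mice received daily for 5 days, which was vehicle in 3 tumours and RAPPD in 4. The labels do not spell out RAPPD, which in published work on this model stands for rapamycin, which inhibits mTOR, combined with a MEK kinase inhibitor. Whether each tumour grew in its own mouse or from its own donor tumour is not in the labels, and p-values therefore measure only the spread between these samples, which may be technical.

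Cells make fatty acids in the cytosol. Acly and Acss2 supply acetyl-CoA from citrate and from acetate, acetyl-CoA carboxylase (Acaca) turns it into malonyl-CoA, and fatty acid synthase (Fasn) joins these units into palmitate with NADPH, part of which comes from malic enzyme (Me1). Elongases and the stearoyl-CoA desaturases then make longer and unsaturated chains. SREBP1 is held in the endoplasmic reticulum as a precursor and is cut free by proteases in the Golgi, and mTOR complex 1 is known to promote this activation downstream of insulin and growth factor signals.

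Of the 10 genes, Srebf1 and the elongase Elovl6 were lower in RAPPD tumours, by 2.6-fold and 3.0-fold, and the elongase Elovl5 was higher by 1.49-fold. Acly, Acss2, Scd1, Scd2 and Me1 were measured and did not pass the test. The probes of Acaca and Fasn were not above background on enough arrays to be tested. Above background means an intensity over the upper 0.05 tail of the array's own background distribution, and probes that met this on at least 3 of the 7 arrays were tested. Of the 13 probes 9 were tested, with 2 called lower and 1 called higher at an adjusted p under 0.05. Over all 21249 tested probes 11.0% were called lower, 10.9% higher and 22.0% in either direction. The 3 calls among 9 probes are read against that background and show nothing particular to these genes. The groups did not overlap in 4 of the 9 tested member probes, 3 of them with RAPPD below vehicle, against 32.6% of all tested probes. The median difference was 0.13 on the log2 scale over the 9 member probes and 0.024 over all tested probes. Adjusted p-values come from two-sided limma tests and the Benjamini-Hochberg method over every tested probe. A level is a normalised log2 signal, which is comparable between arrays and not between probes.

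**Figure D1:**
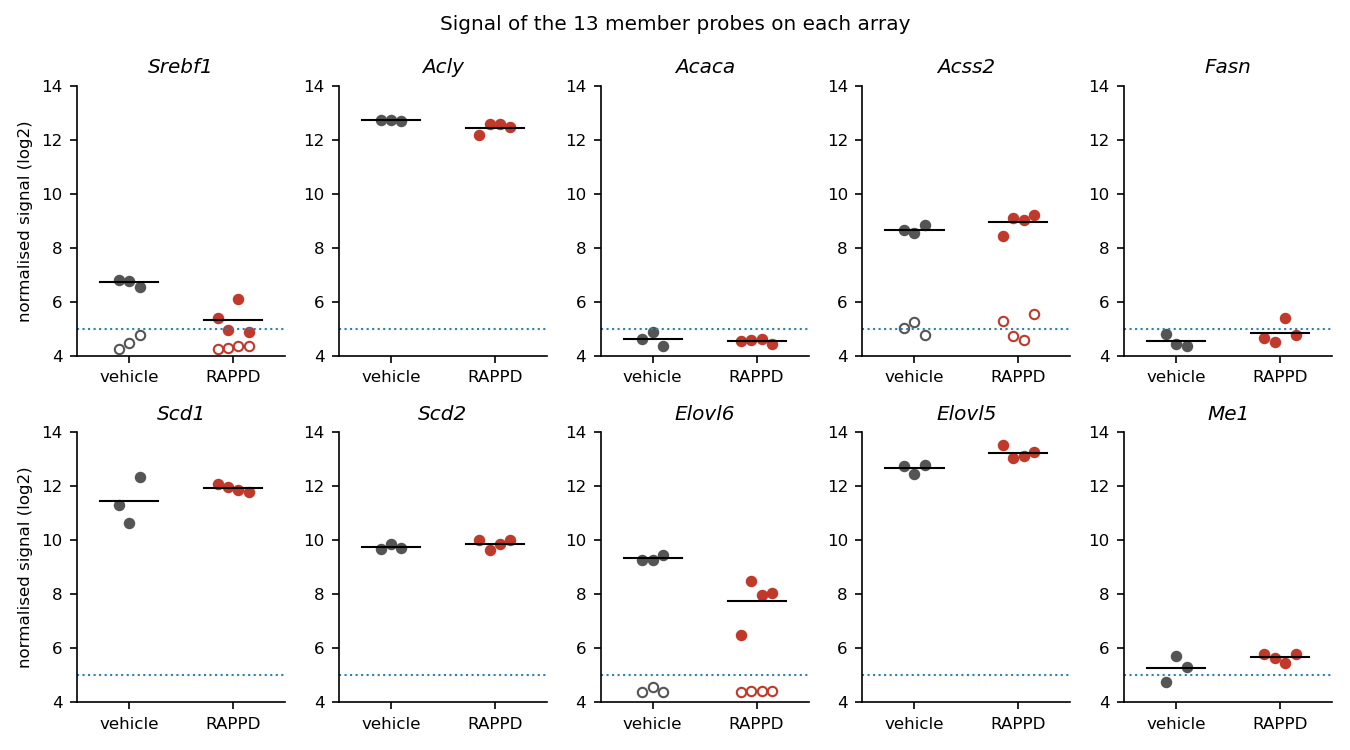
Normalised log2 signal (vertical axis) of every member probe on each of the 3 vehicle and 4 RAPPD arrays. Filled points are the brightest probe of a gene with its group mean as a black line, open points are other probes of the gene, and the dotted line is the highest value, over the arrays, of the lowest signal above background (5.01). Srebf1, Acly and Elovl6 lie lower on all 4 RAPPD arrays than on any vehicle array, Elovl5 lies higher, and Acaca and Fasn stay near the dotted line.

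The arrays lay on 3 chips. Vehicle 3 and all 4 RAPPD arrays were on the same chip, while vehicle 1 and vehicle 2 had a chip apiece. The chip-blocked fit, with chip as a fixed term, therefore sets vehicle 3 alone against the RAPPD arrays. In that fit 4.48% of all tested probes were called lower and 3.09% higher, and 0 of the 9 member probes were called in either direction (limma), with 2 lower and 0 higher at an unadjusted p under 0.05. Between 45.0% and 47.3% of all probes were above background on an array. Vehicle 2 stood apart by its skeletal muscle transcripts, with a mean log2 signal of 12.21 over 10 muscle markers against 4.69 to 5.32 on the other 6 arrays.

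Srebf1 encodes SREBP1 itself and is also a target of SREBP1. Its brighter probe (ILMN_2792089) had log2 signals of 6.82, 6.77 and 6.57 on vehicle 1 to 3. On RAPPD 1 to 4 the signals were 5.41, 4.97, 6.11 and 4.88. The groups did not overlap, and RAPPD 3 lay closest to the vehicle tumours. The difference was -1.38 ± 0.28 log2 units (SE, 4 RAPPD and 3 vehicle tumours, adjusted p = 0.00876 by limma), with a 95% confidence interval of -2.02 to -0.74. It was above background on all 3 vehicle arrays but on 2 of the 4 RAPPD arrays, which makes the size of the fall depend on the floor. The background offset set part of that size, since the fall was 0.88 with an offset of 50 and 2.01 without background correction. In the submitters' processed values, whose transform is not known, the difference was -0.22 (adjusted p = 0.0216 by limma). In the chip-blocked fit it was -1.23 ± 0.46 and the call was lost (adjusted p = 0.153). Leaving out any single array kept the call, with differences of -1.63 to -1.23. The other Srebf1 probe (ILMN_2696876) was not above background on any array. As in all bulk tumour RNA, a lower signal from fewer cells of a type and a lower signal per cell cannot be told apart.

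Acly, which splits citrate into acetyl-CoA and oxaloacetate, was bright and tight among vehicle tumours. Its log2 signals on probe ILMN_1240770 were 12.74, 12.73 and 12.72 on vehicle 1 to 3 and 12.17, 12.58, 12.58 and 12.48 on RAPPD 1 to 4. All RAPPD values lay below all vehicle values, with RAPPD 1 lowest, as did 16.2% of all tested probes. The difference of -0.28 ± 0.17 did not pass the test (adjusted p = 0.265 by limma, 95% confidence interval -0.65 to 0.10). Without RAPPD 1 it was -0.18.

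Acss2, the cytosolic enzyme that activates acetate, had 2 probes. The brighter (ILMN_2734181) gave 8.66, 8.54 and 8.84 on the vehicle arrays and 8.43, 9.12, 9.02 and 9.23 on the RAPPD arrays. RAPPD 1 was below every vehicle value and the other 3 RAPPD arrays were above every vehicle value. The difference of 0.27 ± 0.22 did not pass the test (adjusted p = 0.411 by limma), and it was 0.44 without RAPPD 1 (adjusted p = 0.115) and 0.11 in the chip-blocked fit. The dimmer probe (ILMN_1231116) was above background on 2 arrays of each group, ranged from 4.58 to 5.56, and differed by 0.02 ± 0.26.

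The next 2 steps of the pathway were below or near background by the probes on this array. The Acaca probe (ILMN_1227339) was not above background on any array, with background-subtracted intensities from -8.67 to 12.3. The annotation pairs this probe with no transcript accession. The Fasn probe (ILMN_2874104) was above background on RAPPD 3 only, at an intensity of 26.7, and lay between -9.06 and 10 on the other 6 arrays. No fold is given for either gene, since both groups were at the floor, and a probe at background does not show that the transcript is absent.

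The elongases moved in opposite directions. Elovl6 lengthens palmitate and other saturated and monounsaturated chains and is a target of SREBP1. Its brighter probe (ILMN_2614752) had log2 signals of 9.27, 9.28 and 9.48 on vehicle 1 to 3 and of 6.51, 8.48, 7.97 and 8.06 on RAPPD 1 to 4. The groups did not overlap, and RAPPD 1 lay far below every other array. The probe fell by 1.59 ± 0.40 (SE, n = 4 and 3, adjusted p = 0.0208 by limma, 95% confidence interval -2.49 to -0.69). Without RAPPD 1 the fall was 1.17 ± 0.20 (adjusted p = 0.0045). The call was lost without vehicle 1, 2 or 3 (adjusted p = 0.062, 0.053 and 0.0564), in the chip-blocked fit (-1.73 ± 0.68, adjusted p = 0.164), without background correction and without the filter. In the submitters' processed values the difference was -0.82. The other Elovl6 probe (ILMN_1228218) was not above background on any array.

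Elovl5 lengthens polyunsaturated chains. Its probe (ILMN_2652757) gave 12.77, 12.48 and 12.80 on the vehicle arrays and 13.52, 13.07, 13.13 and 13.29 on the RAPPD arrays. All RAPPD values lay above all vehicle values, with RAPPD 1 highest, as did 16.4% of all tested probes. The probe rose by 0.57 ± 0.18 (SE, n = 4 and 3), which is 1.49-fold, close to the threshold (adjusted p = 0.0483 by limma, 95% confidence interval 0.17 to 0.97). The call was lost whichever of the 7 arrays was left out, with differences of 0.48 to 0.63 and adjusted p of 0.0531 to 0.131. It was also lost with median scaling (adjusted p = 0.0523), in the chip-blocked fit (0.45 ± 0.25, adjusted p = 0.294) and with chip as a random term (adjusted p = 0.0887).

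The contrast between the elongases was also read within each array, as the log2 signal of Elovl6 minus that of Elovl5. Only its shift between groups is informative, since the probes differ in brightness. That shift combines the differences of the 2 genes given above and is no independent evidence. It was -3.50, -3.20 and -3.31 on vehicle 1 to 3 and -7.01, -4.58, -5.16 and -5.23 on RAPPD 1 to 4. The groups did not overlap and their means differed by -2.16. An exact two-sided permutation test over the 7 arrays gave p = 0.0286, the smallest that 35 arrangements allow, and 0.0571 after adjustment over the 2 enzyme pairs compared. The test takes all arrays as exchangeable, although vehicle 3 alone shares a chip with the RAPPD arrays. Within that chip vehicle 3 (-3.31) lay above all 4 RAPPD arrays, and 1 array against 4 is too few for this test to pass its threshold.

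**Figure D2:**
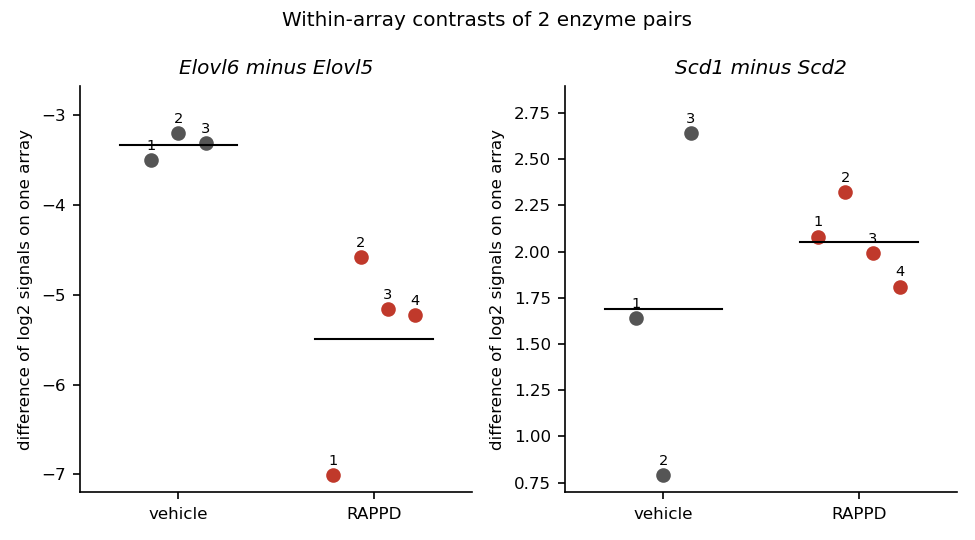
Difference between the log2 signals of 2 enzymes on the same array (vertical axis), for Elovl6 minus Elovl5 (left) and Scd1 minus Scd2 (right), with a point for each array labelled by its replicate number and the group mean as a line. For the elongases the RAPPD arrays lie at -7.01 to -4.58, below the vehicle arrays at -3.50 to -3.20, and for the desaturases the groups overlap.

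Scd1 and Scd2 place the double bond that turns stearate and palmitate into monounsaturated fatty acids. Scd1 (ILMN_1237375) varied widely among vehicle tumours, with log2 signals of 11.33, 10.65 and 12.36 on vehicle 1 to 3. The RAPPD tumours were close to each other at 12.11, 11.98, 11.86 and 11.81. Vehicle 3 lay above all RAPPD arrays, and vehicle 1 and 2 lay below all of them. The SD was 0.86 among vehicle and 0.13 among RAPPD tumours, and the difference of 0.49 ± 0.34 did not pass the test (adjusted p = 0.334 by limma, 95% confidence interval -0.27 to 1.26). Its direction turned in 1 alternative. In the chip-blocked fit, which compares that array with the RAPPD arrays, the difference was -0.42 ± 0.22, and without vehicle 3 it was 0.95 ± 0.22 and called (adjusted p = 0.0205). Without vehicle 2 it was 0.09.

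Scd2 (ILMN_2919259) was steady by comparison, at 9.70, 9.86 and 9.72 on the vehicle arrays and 10.02, 9.66 and 9.87 on RAPPD 1 to 3, with RAPPD 4 just below RAPPD 1. The groups overlapped and the difference of 0.13 ± 0.16 did not pass the test (adjusted p = 0.613 by limma, 95% confidence interval -0.24 to 0.50). Scd1 minus Scd2 was 1.64, 0.79 and 2.64 on the vehicle arrays and 1.81 to 2.32 on the RAPPD arrays. The shift of 0.36 did not pass the exact permutation test (two-sided p = 0.514 over 7 arrays, adjusted p = 0.514), and it was -0.09 without vehicle 2.

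Me1, the cytosolic malic enzyme that makes NADPH, was dim. Its probe (ILMN_2937261) gave 4.75, 5.71 and 5.31 on the vehicle arrays and 5.78, 5.63, 5.47 and 5.79 on the RAPPD arrays. It was above background on 2 of the 3 vehicle and all 4 RAPPD arrays, and the groups overlapped. The difference of 0.41 ± 0.23 did not pass the test (adjusted p = 0.242 by limma). It was 0.16 without vehicle 1, the array on which the probe was not above background, and 0.64 without vehicle 2 (adjusted p = 0.0788).

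**Figure D3:**
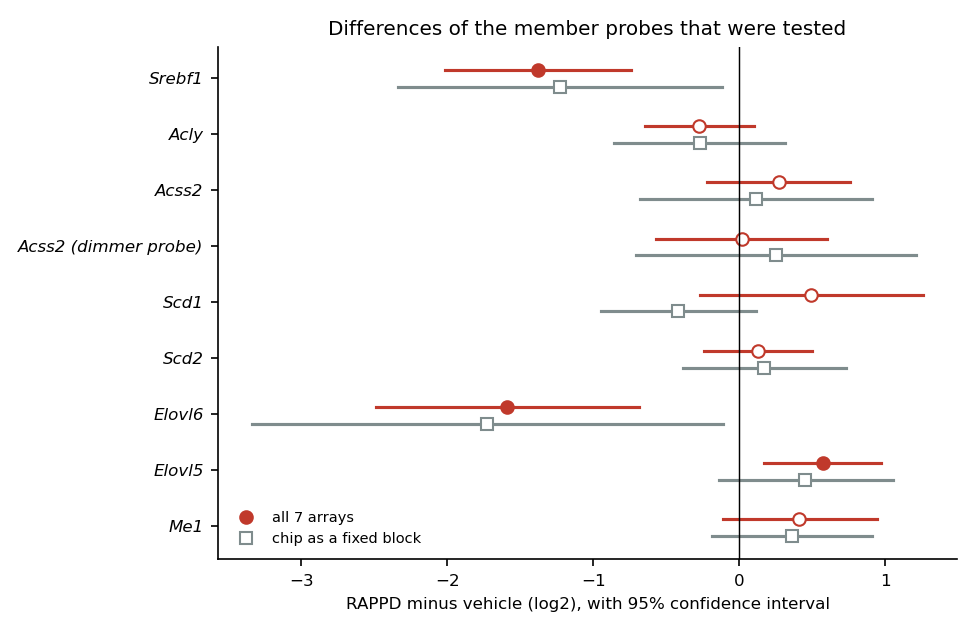
RAPPD minus vehicle on the log2 scale (horizontal axis) with its 95% confidence interval for the 9 member probes that were tested, from all 7 arrays (circles) and in the chip-blocked fit (squares). Filled symbols passed the test at an adjusted p under 0.05, as Srebf1 (-1.38), Elovl6 (-1.59) and Elovl5 (0.57) did on all arrays, and none did in the chip-blocked fit.

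The promoters of the 3 called genes are shown because Srebf1 and Elovl6 fell and Elovl5 rose. They are RefSeq windows of assembly GRCm38.p6, from 250 bases before to 50 after an annotated start, written 5′ to 3′ on the gene's strand. Srebf1 has 3 such windows, and the one of the start that lies furthest downstream is printed. Capitals mark matches on either strand to the sterol regulatory element TCACNCCAC, to the inverted CCAAT box ATTGG, to the GC box GGGCGG, and to the E-box CACGTG. NF-Y binds the CCAAT box and Sp1 the GC box, and both are known partners of SREBP1. No letter string of these motifs holds another.
Srebf1, chr11:60210422-60210721, minus strand: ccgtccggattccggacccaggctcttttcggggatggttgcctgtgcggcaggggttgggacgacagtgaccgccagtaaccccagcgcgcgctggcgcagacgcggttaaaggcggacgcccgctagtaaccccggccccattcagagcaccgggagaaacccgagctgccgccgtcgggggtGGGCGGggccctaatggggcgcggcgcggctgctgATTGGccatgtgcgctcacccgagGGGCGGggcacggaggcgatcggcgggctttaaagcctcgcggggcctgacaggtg
Elovl6, chr3:129532136-129532435, plus strand: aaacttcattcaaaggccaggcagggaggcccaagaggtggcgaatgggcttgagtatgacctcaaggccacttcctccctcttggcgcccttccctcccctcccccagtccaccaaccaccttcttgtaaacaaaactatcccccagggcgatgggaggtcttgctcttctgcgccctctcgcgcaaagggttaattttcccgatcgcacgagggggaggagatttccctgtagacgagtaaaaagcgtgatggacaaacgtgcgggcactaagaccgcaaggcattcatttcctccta
Elovl5, chr9:77917115-77917414, plus strand: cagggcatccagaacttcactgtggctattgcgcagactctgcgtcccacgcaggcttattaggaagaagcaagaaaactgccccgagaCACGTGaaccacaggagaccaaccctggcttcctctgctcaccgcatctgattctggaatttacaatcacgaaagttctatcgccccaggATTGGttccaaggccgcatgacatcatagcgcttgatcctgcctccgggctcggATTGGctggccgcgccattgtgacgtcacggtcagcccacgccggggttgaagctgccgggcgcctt

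The Srebf1 window held 1 inverted CCAAT box and 2 GC boxes, the nearer of which ended at the base before the start. The Elovl5 window held 2 inverted CCAAT boxes and 1 E-box, and the Elovl6 window held none of the 4 motifs. RefSeq windows were found for 8 of the 10 genes, 11 windows in all, and not for Scd1 and Scd2. The sterol regulatory element was matched in 0 of the 11, against 1.24% of all 32851 windows of that length. The inverted CCAAT box was matched in 7 of 11 (37.4% of all windows), the GC box in 5 of 11 (35.7%) and the E-box in 1 of 11 (7.15%). A match or its lack describes these letters in these windows and is no measurement of binding.

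Around the 10 genes, 3 further lists held other enzymes of fatty acid synthesis, regulators of SREBP and genes of glycerolipid and lipoprotein metabolism. Of their 66 genes, 63 had a probe and 49 were tested by their brightest probe, with 7 called higher and 3 lower. Over the brightest probes of all 11085 tested genes 10.6% were called higher and 12.7% lower, with a median difference of -0.014. The called genes fell on different sides by list. All 3 that were called among other fatty acid synthesis genes were lower, and all 7 in the other lists were higher. The 3 lower calls, among 23 tested genes, lie near the 12.7% called lower over all tested genes. The lists were chosen with earlier results of these data known, and the difference between them was not tested.

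**Figure D4:**
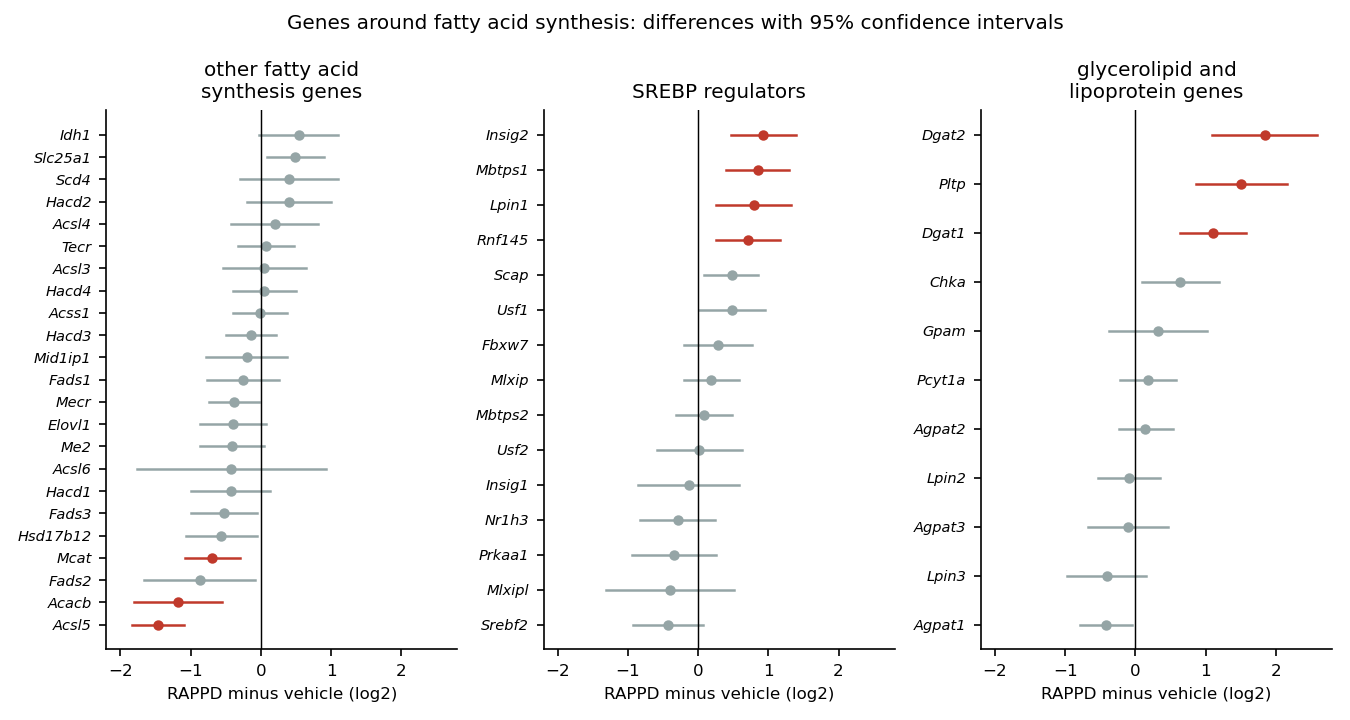
RAPPD minus vehicle on the log2 scale (horizontal axis) with 95% confidence intervals for the brightest tested probe of each gene in 3 lists. Red marks genes that passed the test, which are Acsl5, Acacb and Mcat on the lower side and Insig2, Mbtps1, Lpin1, Rnf145, Dgat1, Dgat2 and Pltp on the higher side.

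Among other fatty acid synthesis genes 3 of 23 tested fell, near the 12.7% called lower over all tested genes, and 0 rose. The median difference was -0.25 (limma, 7 lower and 1 higher at an unadjusted p under 0.05). These counts use the brightest probe. A dimmer probe of Acsl4, a long-chain acyl-CoA synthetase gene, rose by 0.85 (adjusted p = 0.0239), while the brightest Acsl4 probe differed by 0.20 (adjusted p = 0.654). Acsl4 was singled out after its values were seen. Acsl5, which couples long-chain fatty acids to coenzyme A, had log2 signals of 12.80, 12.58 and 12.69 on the vehicle arrays and 11.39, 11.08, 11.12 and 11.31 on the RAPPD arrays. Every RAPPD tumour was lower by more than the spread within either group. It fell by 1.47 ± 0.16 (adjusted p = 4.03e-04 by limma), which is 2.76-fold, and by a similar 1.46 in the chip-blocked fit (adjusted p = 0.0178). Of its other probes, 2 fell by 0.84 and 0.77 and 1 was not above background. Acacb, the carboxylase isoform on the mitochondrial surface, went from 6.91, 7.93 and 7.01 on the vehicle arrays to 6.34, 5.70, 5.99 and 6.39 on the RAPPD arrays. It fell by 1.18 ± 0.28 (adjusted p = 0.0164), and the call was lost in the chip-blocked fit (-0.91, adjusted p = 0.125) and in the submitters' processed values (-0.29, adjusted p = 0.0609). Vehicle 2, the array with high muscle transcripts, was the highest, and without it the difference was -0.86 (adjusted p = 0.0407 by limma). Mcat of mitochondrial fatty acid synthesis fell by 0.69 ± 0.18 (adjusted p = 0.0225), with its other probes at -0.64 and -0.74. The call was lost in the chip-blocked fit (-0.48, adjusted p = 0.241) and without vehicle 1, vehicle 2, RAPPD 2, RAPPD 3 or RAPPD 4 (limma, adjusted p of 0.0533 to 0.0693).

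Of the genes of this list that were named whatever their values, Slc25a1, Fads2 and Fads1 did not pass the test. The citrate carrier Slc25a1 lay at 9.57 to 10.02 on the vehicle and 10.07 to 10.44 on the RAPPD arrays, without overlap. It differed by 0.49 ± 0.18 (adjusted p = 0.0798 by limma), with its other probe at 0.10. The polyunsaturated desaturase Fads2 differed by -0.87 ± 0.35 (adjusted p = 0.109) and was lowest on RAPPD 1 (5.28). Fads1 differed by -0.25 ± 0.23 (adjusted p = 0.476). Thrsp, a lipogenic protein gene, was above background on RAPPD 4 only and was not tested.

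Among regulators of SREBP 4 of 15 tested rose and 0 fell, with a median difference of 0.19 (limma, 6 higher and 0 lower at an unadjusted p under 0.05). Insig2, which retains the SREBP precursor in the endoplasmic reticulum, gave 10.08, 9.42 and 9.83 on the vehicle arrays and 10.58, 10.58, 10.67 and 10.98 on the RAPPD arrays. The groups did not overlap. It rose by 0.93 ± 0.20 (adjusted p = 0.0113 by limma), with another probe at 0.43, and the call was lost in the chip-blocked fit (0.88, adjusted p = 0.0777). Mbtps1, the site-1 protease that makes the first cut in SREBP, rose by 0.85 ± 0.20 (adjusted p = 0.0158), and its next 2 probes rose by 0.77 and 0.75. The phosphatidate phosphatase Lpin1, which also restrains SREBP in the nucleus, rose by 0.79 ± 0.24 (adjusted p = 0.0409), and the ubiquitin ligase gene Rnf145 rose by 0.71 ± 0.21 (adjusted p = 0.0356). In the chip-blocked fit these differences were 0.58, 0.48 and 0.37 and none was called (adjusted p = 0.23, 0.416 and 0.355). Over 18 alternatives the Lpin1 call was lost in 10, the Rnf145 call in 9 and the Mbtps1 call in 2, the other being without vehicle 1 (adjusted p = 0.0674 by limma). A dimmer Mbtps1 probe differed by 0.15 (adjusted p = 0.552 by limma) and another Lpin1 probe by 0.71 (adjusted p = 0.113), and neither was called. Srebf2, which encodes the cholesterol-directed SREBP2, did not pass the test (-0.43 ± 0.22, adjusted p = 0.202 by limma). Its RAPPD values lay narrowly below all vehicle values (highest RAPPD 9.71, lowest vehicle 9.73), as did 16.2% of all tested probes. On its other probe the groups overlapped (-0.51, adjusted p = 0.162). Insig1, a classic SREBP target, differed by -0.13 ± 0.32 (adjusted p = 0.807 by limma), and its other probes by 0.2, 0.28 and -0.41 (not called). The liver X receptor gene Nr1h3 differed by -0.29 ± 0.24 (adjusted p = 0.417). The escort protein gene Scap differed by 0.48 ± 0.17 (adjusted p = 0.0763), and its other probe by -0.19 (adjusted p = 0.601). The glucose-responsive factor gene Mlxipl differed by -0.40 ± 0.41 (adjusted p = 0.52), and without vehicle 2, its highest array (7.34), by 0.19. Acsl1 and Nr1h2 were not analysed here.

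Among glycerolipid and lipoprotein genes 3 of 11 tested rose and 0 fell, with a median difference of 0.18 (limma, 4 higher and 1 lower at an unadjusted p under 0.05). Dgat2 and Dgat1 encode the enzymes that make triglyceride from diacylglycerol. Dgat2 went from 8.14, 7.66 and 7.88 on the vehicle arrays to 8.86, 9.58, 10.31 and 10.17 on the RAPPD arrays, with RAPPD 1 nearest to the vehicle tumours. It rose by 1.84 ± 0.33 (adjusted p = 0.00469 by limma), which is 3.57-fold. Dgat1 rose by 1.10 ± 0.21 (adjusted p = 0.00609), from 7.21 to 7.89 on the vehicle arrays to 8.57 to 8.92 on the RAPPD arrays. Pltp, a phospholipid transfer protein gene, rose by 1.51 ± 0.28 (adjusted p = 0.00568), from 7.40, 7.96 and 8.78 on the vehicle arrays to 9.49 to 9.63 on the RAPPD arrays. In the chip-blocked fit the differences were 1.85, 0.87 and 0.78 and the calls were lost (adjusted p = 0.0858, 0.0721 and 0.0661).

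Markers of other cell types moved with the groups or between arrays, and their part in the results above was not tested. Of 8 tested neutrophil markers 7 rose and 0 fell, with a mean log2 signal over the list of 7.01 to 8.63 on the vehicle and 9.21 to 11.0 on the RAPPD arrays. Of 5 tested epithelial markers, the keratins Krt8 and Krt18 fell by 2.16 and 2.83, and the list mean was 7.03 to 7.94 on the vehicle and 6.10 to 7.15 on the RAPPD arrays. Krt19 (-1.81), Krt14 (-0.69) and Cdh1 (0.05) did not pass the test (adjusted p = 0.3, 0.11 and 0.964 by limma). Krt19 turned to 1.22 in the chip-blocked fit. In the chip-blocked fit Krt8 kept its call (adjusted p = 0.0481) and Krt18 did not (adjusted p = 0.114). Epcam and Krt5 were not above background on any array. Of the prostate markers Pbsn, Tmprss2, Hoxb13 and Msmb were not above background on any array. Fibroblast markers rose in 2 of 8 tested (Col1a2 2.57, Pdgfra 1.28) and fell in 1 (Pdgfrb -1.11). Endothelial markers fell in 2 of 8 and macrophage markers in 1 of 7 (Mrc1 -1.22). The median difference was 0.97 over the fibroblast, 0.18 over the endothelial and 0.07 over the macrophage markers tested. Of all genes tested by brightest probe, 10.6% were called higher and 12.7% lower. By brightest probes, only Retnlg of the neutrophil markers kept its call in the chip-blocked fit. The fibroblast, macrophage and endothelial calls made over all arrays were lost there. Among them were the higher calls of the fibroblast markers Col1a2 (a difference of 2 in that fit) and Pdgfra (0.3). The lower calls lost included those of the fibroblast marker Pdgfrb (-1.25) and the macrophage marker Mrc1 (-1.53). Other genes, Lum of the fibroblast and Adgre1 of the macrophage markers, were called lower in that fit (-1.45 and -1.75). Their brightest probes were not called over all arrays. The dimmer Adgre1 probes were called lower over all arrays (-0.98 and -0.85, adjusted p = 0.0394 and 0.0288 by limma), and the dimmer Lum probe was not (-0.53). Of 6 tested skeletal muscle markers 0 were called, also at an unadjusted p under 0.05 (limma).

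Adipocytes are a rich source of these transcripts, and their markers were low on average, with exceptions on vehicle 1 and vehicle 3. Plin1, Fabp4 and Cidea were not above background on any array, and 0 of 4 tested markers were called (limma, with Adipoq at an unadjusted p under 0.05). The mean over 9 adipocyte markers was 4.88 to 5.31 on the vehicle and 4.67 to 4.83 on the RAPPD arrays. Adipoq, the adiponectin gene, was at 7.54 and 7.51 on vehicle 1 and 3 and at 5.05 on vehicle 2, against 4.60 to 6.06 on the RAPPD arrays. Cidec, a lipid droplet protein gene, had the same pattern at 6.68, 4.46 and 6.93 on vehicle 1 to 3. All 4 RAPPD arrays were at background for it (4.38 to 4.99), and it was not tested. Among the vehicle tumours Scd1 (10.65), Elovl5 (12.48) and the brighter Acss2 probe (8.54) were lowest on vehicle 2. Scd2 (9.86) and Me1 (5.71) were highest there. Srebf1, Acly and Elovl6 on vehicle 2 (6.77, 12.73 and 9.28) lay between their values on vehicle 1 and vehicle 3. A link of these values to the adipocyte markers was not tested. Of 6 sebaceous gland markers with a probe 1 was tested, the adipogenic factor gene Pparg, which differed by -1.44 ± 0.46 and did not pass the test (adjusted p = 0.0522 by limma). Krt79 and Mogat1 were not above background on any array.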

How the data were processed

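RNA of 7 NPK tumour allografts was hybridised to Illumina mouse bead arrays, 1 sample an array. The deposited table holds linear, background-subtracted intensity values per probe, which go below 0, and no control probes or detection p-values. The submitters' processing notes name BeadStudio and lumi without versions or roles. The authors' processed values, also deposited, look like log2 values, but their transform and centring are not known, and they served as an alternative only.

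Intensities were corrected by normexp with a mean of 0 and an SD estimated from each array's negative intensities (neqc could not be used without control probes), an offset of 16 was added, and values were quantile-normalised and log2-transformed. Probes above background on at least 3 of 7 arrays were tested with limma 3.58.1 (statmod 1.5.0, R 4.3.3), adjusted p threshold 0.05. Gene names come from the platform annotation, in which 34776 of 45128 probes have 1 symbol, 18 several and 10334 none. The members, the related lists, the marker lists and the tests were chosen with earlier results of these data known. All members are named, and from the 3 related lists the called genes with the 5 smallest p in each direction plus 13 genes named whatever their values. Some genes of the model and of the lists are not reported here. The number of arrays, signal near background and the chip layout limit precision. Pearson correlations of log2 signals were 0.958 to 0.975 among vehicle, 0.970 to 0.984 among RAPPD and 0.912 to 0.950 between groups. The calculations were tested on simulated data. Alternatives changed the offset, background correction, normalisation, filter, probe choice and variance model, took chip as a block, used the processed values and left out each array.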

Additional observations from a re-analysis of the deposited data

How the results depend on the processing

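Of 158 values that alternatives gave for the 9 tested member probes, 133 kept their direction and side of the threshold, 18 lost a call, 1 gained one and 6 changed sign. The cause was not tested. Without the filter the 4 untested member probes were tested and 0 were called, also at an unadjusted p under 0.05 (limma, adjusted p of 0.56 to 0.89). Called member probes numbered 1 higher and 2 lower. The higher count was 0 without background correction, with median scaling and with chip as a fixed or random block (limma, 1, 1, 0 and 1 at an unadjusted p under 0.05), and 0 to 1 with an array left out. The lower count was 1 without background correction, without the filter and with detection required on all arrays, 0 with chip as a fixed block (2 at an unadjusted p under 0.05), and 1 to 2 with an array left out. Over all probes 2325 were higher and 2347 lower, against 1214 and 1457 with 1 probe per gene, 656 and 951 with chip as a fixed block, and 1445 to 2492 and 1557 to 2447 with an array left out. The higher share of calls was 49.8%, and 40.8% with chip as a fixed block. With 1 probe per gene 11085 genes were tested, against the 21249 probes behind the counts of 2325 and 2347, so these counts have different bases. The dimmer Acss2 probe turned to -0.53 without background correction, -0.00083 in the submitters' processed values, -0.1 without vehicle 3, -0.07 without RAPPD 1 and -0.15 without RAPPD 4 (-0.15 to 0.17 with an array left out). With chip as a fixed block Scd1 turned to -0.42, Insig1 to 0.24 and Mlxipl to 0.14. Insig1 was 0.16 without RAPPD 1 (-0.32 to 0.16 with an array left out) and Mlxipl 0.19 without vehicle 2 (-0.72 to 0.19). Scd1 minus Scd2 ranged from -0.09 to 0.84 and Elovl6 minus Elovl5 from -2.47 to -1.66 with an array left out. Alternatives for the named related genes were added after seeing the data. No paired analysis was possible because the labels give no replicate numbers. Signal near background limits Acaca, Fasn, Me1, the dimmer Acss2 probe and Srebf1 in RAPPD tumours. With detection required on all arrays 6 member probes were tested and Srebf1 was not, so its call is missing there without having failed a test.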

Other observations

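RAPPD 1 had the lowest signal of the 4 RAPPD arrays for Acly, Acss2 and Elovl6, 3 of the 8 tested member genes (37.5%), and the highest for Elovl5, Scd1 and Scd2 (also 37.5%). It was the lowest of them for Fads2 (5.28), Srebf2 (8.97) and Insig1 (6.45), and the highest for Mbtps1 (11.39) and Lpin1 (9.02). Over the 49 tested genes of the 3 related lists it was the lowest for 17 (34.7%) and the highest for 15 (30.6%). Over all tested probes it was the lowest of the 4 on 25.9% and the highest on 33.2%.

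Me2, the mitochondrial malic enzyme gene, did not pass the test over all arrays (-0.41, adjusted p = 0.177 by limma) and was called in the chip-blocked fit (-0.88, adjusted p = 0.0481). Its log2 signal was 9.0 on vehicle 3 against 8.26 and 8.35 on the other vehicle arrays and 8.10 to 8.17 on the RAPPD arrays. Me2 was singled out after its values were seen.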
